A study of Rattus norvegicus and Mus musculus with 22 samples.

Results

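CD4-positive cells isolated magnetically from rat lung were set against whole lung of the same genotype and day, to see which RNAs the isolation raised and which it removed. The members were chosen by their labels: the 2 lung CD4-positive libraries and the 3 total lung libraries of wild-type (WT) rats at day 7, 5 of the 22 samples of the series, compared over the 22071 gene symbols that both day 7 count tables list. All of these rats had received Sugen-hypoxia (SuHx), the combination of an inhibitor of the VEGF receptor with low oxygen that serves as a model of pulmonary hypertension. Strain, sex and age are not given in the labels. The same contrast in rats labelled as Il6 knockouts (IL6KO), also on SuHx and at day 7, had 2 isolates and 3 lungs and is given at the end. The isolates were made by MACS, in which cells are held on a magnet through an antibody, and no second gate is named. Samples carry numbers, but nothing in the labels ties a number to an animal or an isolate to a lung, so the p-values measure the spread between these samples, which may be technical.

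CD4 is the coreceptor with which helper T cells read peptides on MHC class II, and in rats monocytes and macrophages carry it as well, so a selection on CD4 alone can hold both. The lung itself is built mostly of endothelium, alveolar and airway epithelium, fibroblasts and mural cells, with resident macrophages in the alveoli and the interstitium. Freeing cells from a solid tissue is known to switch on immediate early genes, which encode transcription factors such as Fos and Jun, within the time the procedure takes.

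The isolates held 11669682 and 12930732 counts and the lungs 15011692, 23590070 and 16076162. Levels below are CPM, a gene's counts relative to the library total, scaled by TMM, which adjusts libraries for differences in composition, and compare 1 gene between libraries, not genes with each other. A log2 difference is the fitted fold change, isolates minus lung, with its standard error (SE), and its p comes from the quasi-likelihood test of edgeR, adjusted over 14463 genes by the method of Benjamini and Hochberg. With 0.05 as the limit of the adjusted p, 82.2% of genes were called one way or the other. Of these, 5654 genes (39.1%) were called higher and 6236 (43.1%) lower, with a median log2 difference of -0.07 over all genes. A call by itself is thus the ordinary case here. The groups did not overlap for 5648 of the genes called higher and 6235 of those called lower. Absence of overlap therefore adds little to a call. The lists described below are 46 sets of marker and pathway genes with 825 symbols, of which 787 are in both tables; counts are given over the members that passed the filter on low counts. Far fewer genes were called higher by at least 2 on the log2 scale (1198, or 8.28%) than lower by as much (3617, or 25.0%). Scaling by total counts alone gave 4320 higher and 7486 lower and moved the median by -0.34 to -0.42. The isolation, the count table and the tissue coincide in this contrast, so their parts cannot be told apart. In these bulk samples, fewer cells of a type and less RNA per cell cannot be told apart either.

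The gene that names the isolates was higher in them. Cd4 stood at 700 and 730 CPM in the isolates and at 17.0, 21.4 and 20.4 in the lungs. Both isolates lay far above all lungs, with a log2 difference of 5.18 (SE 0.12, edgeR adjusted p = 1.94e-10). Cd3e, a chain of the T cell receptor complex, was at 724 and 697 against 5.18, 8.25 and 7.17 CPM. Its log2 difference was 6.67 (SE 0.16, edgeR adjusted p = 5.55e-10), with the groups well apart. Csf1r, the receptor through which macrophages are kept alive, was also higher, at 1053 and 989 against 251, 256 and 260 CPM. That is a log2 difference of 2.00 (SE 0.09, edgeR adjusted p = 6.95e-09), again without overlap. Ptprc, the pan-leukocyte surface phosphatase CD45, rose by 4.49 on the log2 scale.

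**Figure D1:**
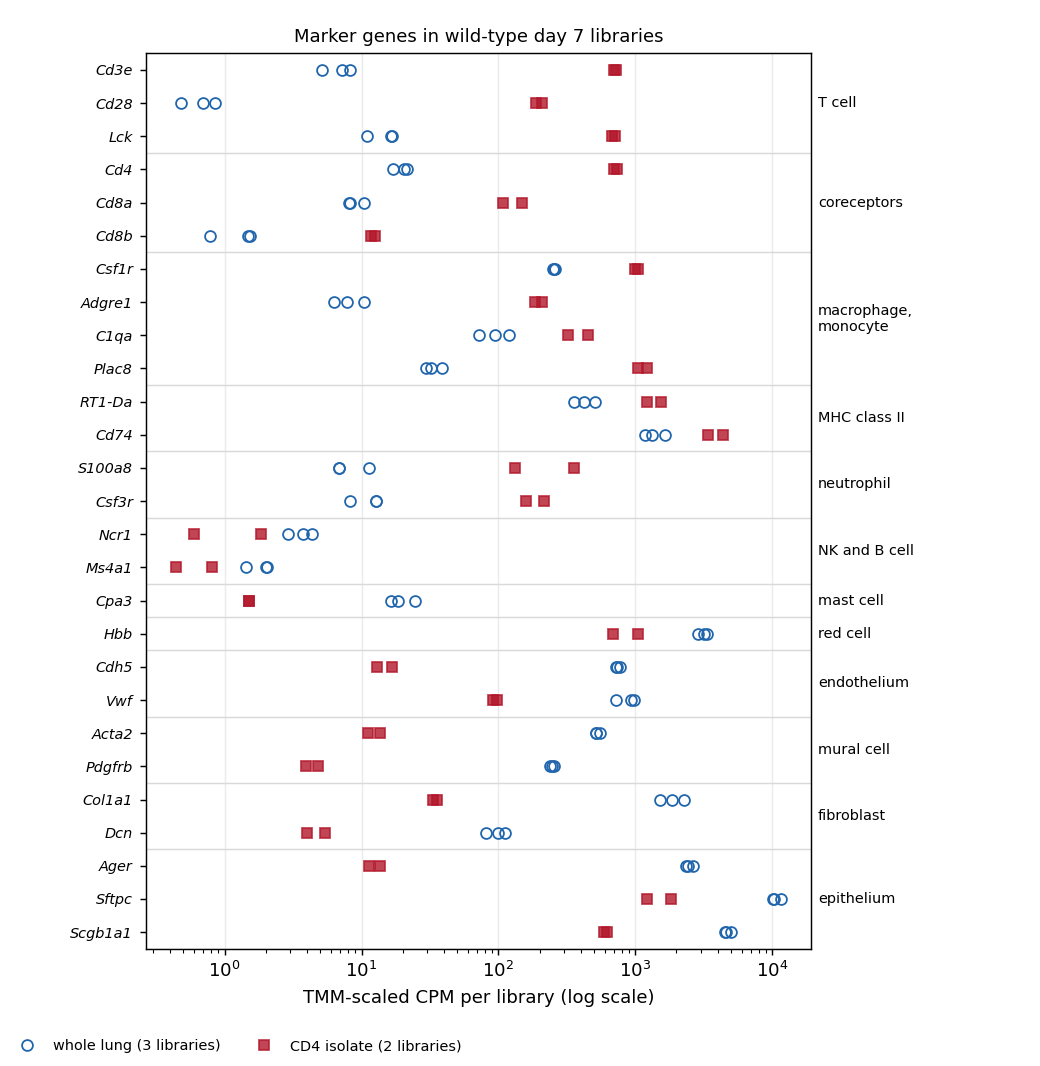
Level of 27 marker genes in each wild-type day 7 library, as TMM-scaled CPM on a log axis, with a filled square for each of the 2 CD4 isolates and an open circle for each of the 3 whole lungs. Squares lie to the right of the circles for Cd4 (700 and 730 against 17.0, 21.4 and 20.4 CPM), for the T cell, macrophage and neutrophil genes and for Cd74, and to the left for Ncr1 and Ms4a1, single genes of the NK and B cell lists, which both split, and for the mast, red, endothelial, mural, fibroblast and epithelial genes drawn.

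Genes of the T cell receptor and its signaling rose together. Of the 24 members of the T cell identity list, all tested, 23 were called higher, each by more than 2 on the log2 scale, and the median was 5.85, against 39.1% and -0.07 over all genes. Cd28, the costimulatory receptor, was at 189 and 208 CPM in the isolates and under 1 CPM in each lung (0.481, 0.694 and 0.853). It had the largest difference of the list, 8.17 (SE 0.14, edgeR adjusted p = 1.66e-10). Lck, the kinase that starts receptor signaling, went from 11.0, 16.3 and 16.6 to 677 and 709 CPM. Bcl11b, a transcription factor that fixes T cell identity, went from 1.75, 2.12 and 1.99 to 111 and 127 CPM. For both genes the lowest isolate was above the highest lung many times over. Thy1 was the single member that fell, from 14.0, 17.1 and 22.6 to 2.51 and 2.46 CPM (-2.85, SE 0.25). Thy1 encodes a surface protein that fibroblasts and other stromal cells also make. Summed over the list, the isolates reached 6452 and 6367 CPM and the lungs 105, 140 and 146, so the isolates differed little in this respect.

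Genes of several T cell states were measured among these. Of 12 tested genes of naive and recirculating T cells, 10 rose, with a median of 3.68. Ccr7, the receptor that guides cells into lymph nodes, stood at 1053 and 832 CPM against 5.36, 7.33 and 8.59 in lung. Ccr7 is not restricted to T cells, since migrating dendritic cells also carry it. Igfbp4 (from 152, 180 and 158 to 7.73 and 4.57 CPM, -4.75) and Actn1 (-0.90) fell. Of 18 genes of activation and checkpoints, 17 rose, with a median of 5.73. Cd69, an early activation marker, was at 861 and 739 CPM against 2.35, 3.32 and 3.81, and Ctla4, the inhibitory counterpart of Cd28, at 317 and 285 against 0.481, 0.771 and 0.626. Cd40lg, through which helper T cells license other cells, was at 141 and 155 against 0.301, 0.848 and 0.284. Cd200 was the exception, at -1.71.

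Regulatory T cell genes were plainly present. Foxp3, the factor that defines these cells, was at 148 and 166 CPM in the isolates and 1.44, 2.04 and 1.65 in the lungs (6.48, SE 0.13, edgeR adjusted p = 1.84e-10). The groups did not overlap. Il2ra, the high-affinity chain of the IL-2 receptor, went from 3.19, 3.51 and 3.13 to 183 and 193 CPM. In the regulatory list 12 of 16 tested members rose and 2 fell (Nrp1 at -1.32 and Lrrc32 at -0.79, both also made by endothelium).

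Factors and cytokines of the helper lineages were covered unevenly. Tbx21, the Th1 factor, rose from 4.63, 4.67 and 5.80 to 13.3 and 15.8 CPM (1.54), and Gata3, the Th2 factor, from 9.87, 10.2 and 12.2 to 107 and 137 (3.51). Both isolates lay above all lungs for both factors. The cytokines had few counts. Il22 had 75 and 38 counts in the isolates and 0 in all 3 lungs, which is at least 30.1-fold higher against a floor of 3 counts per library. Il17a had 6 and 33 counts against 0 in the lungs, and Ifng 14 and 26 counts against 1, 2 and 0. Il4, Il5 and Il13 did not pass the filter on low counts. Ccr4, a Th2 and regulatory homing receptor, was at 54.6 and 64.6 CPM against 0.120, 0.116 and 0.228, and Cxcr5, the receptor of follicular helper cells, at 8.93 and 6.60 against 1.02, 0.733 and 1.14.

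CD8 genes came along with Cd4. Cd8a was at 150 and 109 CPM in the isolates and 8.12, 10.4 and 8.30 in the lungs, a log2 difference of 3.84 (SE 0.16, edgeR adjusted p = 3.29e-08), with no overlap. Cd8b went from 0.782, 1.54 and 1.48 to 11.7 and 12.6 CPM (3.22). Zbtb7b, the factor that directs cells to the CD4 lineage, rose least of the 5 genes of the coreceptor list (0.49; 0.15 and not called with total counts as the scale), and Runx3, its CD8 counterpart, by 3.65. Genes shared by NK and CD8 cells split. Klrk1 (NKG2D) went from 4.81, 6.71 and 5.06 to 143 and 144 CPM and Prf1 (perforin) from 15.3, 23.1 and 21.8 to 67.4 and 55.9. Ncr1, the most NK-restricted receptor of the list, fell from 2.89, 4.36 and 3.75 to 0.602 and 1.85 CPM (-1.56, SE 0.40, edgeR adjusted p = 0.00481), and Gzma (granzyme A) from 3.37, 5.09 and 5.12 to 1.00 and 0.879. Both isolates were below all lungs for both genes. In the NK list 10 of 14 tested members rose and 2 fell, beside 39.1% higher and 43.1% lower over all genes. Killer-receptor and granzyme genes lie in families of near copies, between which reads can be split, so single members are uncertain.

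Macrophage genes rose as well, though by less. In the macrophage identity list 22 of 31 tested members were called higher and 3 lower, with a median of 1.97. Adgre1 (F4/80) had the largest rise, from 7.82, 10.4 and 6.31 to 210 and 185 CPM (4.57, SE 0.18, edgeR adjusted p = 5.58e-08), without overlap. C1qa, a chain of complement C1q, went from 71.9, 93.8 and 120 to 322 and 452 CPM. The scavenger receptor Cd163 went from 3.19, 2.89 and 3.13 to 20.9 and 50.7 CPM, and the isolates differed more than 2-fold from each other. Mrc1, the mannose receptor, overlapped between the groups, at 156 and 238 against 205, 220 and 232 CPM (-0.15, SE 0.17, edgeR adjusted p = 0.414). Without isolate 2 it was called lower (-0.49, edgeR adjusted p = 0.00454), and likewise with total counts as the scale (-0.49). Lyz2 (lysozyme, also made by alveolar type 2 cells), Siglec1 and Mertk fell, by 0.97, 0.37 and 1.25. Siglec1 was not called without lung 2 (edgeR adjusted p = 0.0679) or isolate 2 (0.163), or with all 4 day 7 groups in 1 fit (0.212). Cd68, a lysosomal protein, was at 200 and 190 against 78.5, 111 and 132 CPM (0.86) and was not called without isolate 1 (edgeR adjusted p = 0.0562).

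Interstitial macrophage genes mostly rose, and alveolar macrophage genes split. Of 12 tested alveolar macrophage genes, 7 fell and 4 rose (median -1.03), beside 43.1% lower and 39.1% higher over all genes. Of 16 interstitial ones 13 rose and 2 fell (median 2.00). The interstitial list shares 6 genes with the macrophage list. Among the alveolar genes 3 rose and 3 fell by at least 2 on the log2 scale, from Itgax at 2.24 to Perp at -4.89. Pparg, the factor of alveolar macrophages, fell from 18.7, 19.4 and 21.1 to 7.03 and 6.86 CPM. Marco, a scavenger receptor of the same cells in mouse, had 0 counts in both isolates and 0, 4 and 0 in the lungs. Of the interstitial genes, Stab1 rose from 107, 105 and 121 to 426 and 540 CPM and Cd209 by 4.33. Gas6 of the same list fell from 518, 476 and 513 to 74.2 and 75.3 CPM (-2.75).

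Monocyte genes rose in 13 of 15 tested members (median 2.64). Plac8 was at 1229 and 1048 CPM against 29.4, 38.6 and 32.2, and Cx3cr1, the fractalkine receptor, at 36.7 and 44.6 against 6.56, 8.83 and 8.53. Ace, which lung endothelium makes in quantity, fell from 618, 635 and 671 to 10.4 and 7.65 CPM, and Fn1 fell by 0.69. Ccr2 was not analysed here. For antigen presentation, 12 of 15 tested members rose and Cd40 fell (-0.42), though not without lung 2 or isolate 1 (edgeR adjusted p = 0.0712 and 0.0939). The class II chain RT1-Da was at 1215 and 1550 CPM against 357, 422 and 512, its chaperone Cd74 at 3387 and 4356 against 1175, 1331 and 1651, and the costimulator Cd80 at 60.7 and 51.6 against 1.81, 1.85 and 2.56. The isolates were above all lungs for each of these 3 genes. Dendritic cell genes were mixed, with 9 higher and 6 lower of 17, beside 39.1% higher and 43.1% lower over all genes. Xcr1, the receptor of type 1 dendritic cells, had 0 counts in both isolates and 23, 66 and 46 in the lungs, at least 7.25-fold lower, and Clec9a of the same cells fell by 4.51. Flt3, the growth factor receptor of dendritic cells, rose from 6.74, 6.01 and 9.33 to 15.0 and 27.5 CPM. Genes of plasmacytoid dendritic cells split, with 8 higher and 4 lower of 12. Siglech of that list was at 3.31 and 2.29 CPM against 0.0602, 0.154 and 0.0569. Tcf4 of the same list fell from 33.5, 34.8 and 34.8 to 13.9 and 15.0 CPM (-1.25).

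**Figure D2:**
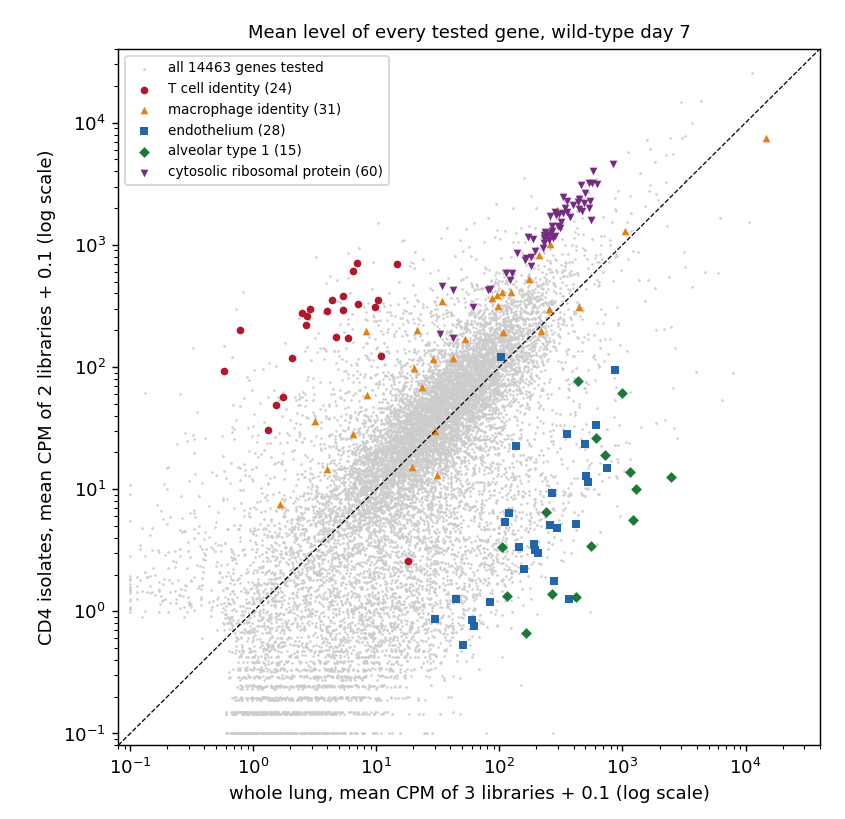
Mean CPM of each tested gene in the 2 wild-type CD4 isolates (vertical, log axis, plus 0.1) against the 3 whole lungs (horizontal, log axis, plus 0.1), with the line of equal levels dashed. T cell genes, of which 23 of 24 were called higher, lie far above the line, macrophage and ribosomal protein genes above or near it, and endothelial and alveolar type 1 genes far below.

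Promoter sequence is shown for 1 gene of each of 3 lists that moved apart, to set the letters beside the levels. Each window is the 250 bases before the gene's start, from the RefSeq promoter table on build GRCr8, written 5′ to 3′ on the gene's strand. GAGGAA is the core bound by PU.1 (Spi1), the myeloid master regulator, and TGTGGTT a site of the RUNX factors; matches on either strand are in capitals. Cd28 and Adgre1 are the members of the T cell and macrophage lists with the largest rise among those that hold the respective motif and have 1 entry in the table, and Aqp5 is the alveolar type 1 gene that fell furthest. Adgre1 is at 210 and 185 CPM in the isolates and Aqp5, a water channel, at 1.10 and 1.32 against 442, 403 and 403 in lung.
Cd28, chr9:69660066-69660315, + strand: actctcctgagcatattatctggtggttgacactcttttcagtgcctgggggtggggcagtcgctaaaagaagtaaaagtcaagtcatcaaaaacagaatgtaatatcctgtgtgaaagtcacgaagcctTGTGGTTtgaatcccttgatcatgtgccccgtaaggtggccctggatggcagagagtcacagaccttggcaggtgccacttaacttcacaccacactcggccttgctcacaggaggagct
Adgre1, chr9:2329190-2329439, + strand: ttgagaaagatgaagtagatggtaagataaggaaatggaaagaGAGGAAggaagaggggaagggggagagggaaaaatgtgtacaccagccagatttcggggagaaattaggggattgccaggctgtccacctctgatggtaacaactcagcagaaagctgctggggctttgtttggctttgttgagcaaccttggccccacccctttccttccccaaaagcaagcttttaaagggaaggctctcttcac
Aqp5, chr7:132601278-132601527, + strand: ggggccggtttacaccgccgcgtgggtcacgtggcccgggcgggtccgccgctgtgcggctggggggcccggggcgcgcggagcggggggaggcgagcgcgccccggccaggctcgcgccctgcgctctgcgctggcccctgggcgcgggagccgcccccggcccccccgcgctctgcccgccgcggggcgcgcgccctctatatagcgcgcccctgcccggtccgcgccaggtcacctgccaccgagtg
Cd28 has 1 RUNX match, Adgre1 has 1 PU.1 core and Aqp5 has neither. In the shares that follow, a list gene counts if any of its windows matched, while the share over all is per window. Genes with several windows have more chances to match, so the list shares can lie above the overall share for that reason alone. GAGGAA was found in 15 of the 22 macrophage genes with a window (68.2%), in 5 of 19 T cell genes (26.3%), in 8 of 18 endothelial genes (44.4%) and in 1 of 13 alveolar type 1 genes (7.69%), against 23.3% of all 33469 windows. TGTGGTT was found in 5 of 19 T cell genes (26.3%), in 1 of 22 macrophage genes (4.55%) and in 0 of 13 alveolar type 1 genes, against 4.59% of all windows. These motifs were picked after their shares were seen from the 9 given here, and a longer form of the NF-kB motif, not given, was searched as well. Of the other 7, CACCTG (an E-box) was in 36.8% of T cell and 53.8% of alveolar type 1 genes against 15.9% of all windows. ACAGGAAG (an ETS site) was in 21.1% of T cell genes against 2.72%. TGACTCA (AP-1) was in 4 of 17 genes of the cytokine list (23.5%) against 4.05%, and in 0 of 20 immediate early genes. TATAAA (the core promoter box) was in 25.0% of immediate early and 35.3% of cytokine genes against 12.9%. GAGGAAGT, which contains the PU.1 core, was in 4.55% of macrophage, 5.26% of T cell and 16.7% of endothelial genes against 2.04% of all windows, so the longer form does not share the order of the short one. ATAAATA, which can overlap TATAAA, was in 11.8% of cytokine genes against 5.56% of all windows. GGACTTTCC (NF-kB) was in 2 of 17 cytokine genes (11.8%) and 1 of 20 immediate early genes against 0.266% of all windows. A match is a description of the letters, not a site.

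Most neutrophil genes were higher. Of 18 tested members 13 rose and 3 fell (Lcn2, Cd177 and Cxcr1), with a median of 3.94. S100a8, a calcium-binding protein abundant in neutrophils and monocytes, was at 132 and 356 CPM in the isolates and 11.3, 6.86 and 6.88 in the lungs (4.89, SE 0.62, edgeR adjusted p = 0.00359). Csf3r, the G-CSF receptor, was at 158 and 215 against 12.8, 12.8 and 8.19. Neither gene overlapped between the groups. The summed list was 989 and 1770 CPM in the isolates and 424, 677 and 727 in the lungs, and isolate 2 exceeded isolate 1 by 1.79-fold, more than in any other of the 46 lists. Its granule genes Mpo, Elane and Prtn3 had few counts in isolates and lungs alike and did not pass the filter. Mpo had 1 and 2 counts in the isolates against 3, 3 and 3 in the lungs, and Elane 1 and 2 against 0, 0 and 0. Prtn3 had 0 counts in both isolates and 7, 5 and 10 in the lungs. What this RNA contributes to other results was not tested.

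B cell genes split. Of 17 tested members 9 were lower and 7 higher, shares near those over all genes. Ebf1, a founding factor of the B lineage, had 1 and 5 counts in the isolates and 207, 378 and 237 in the lungs (-5.55), though stromal cells also use it, and Ms4a1 (CD20) at 0.803 and 0.440 against 1.44, 2.04 and 1.99 (-1.57). Ms4a1 was not called without isolate 2 (edgeR adjusted p = 0.0549). Pax5, the factor that keeps B cells B cells, had 2 and 1 counts in the isolates and 26, 25 and 17 in the lungs, a lung-to-isolate ratio of 8.04 with a 95% counting interval from 2.64 to 40.0. Cd37 and Cd22 rose by 4.20 and 3.58. Cd79a, a chain of the B cell receptor, rose slightly, at 18.3 and 15.9 against 8.06, 11.6 and 9.95 CPM.

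Mast cell and red cell RNA was lower, and platelet genes were mixed. Mast cell and basophil genes fell in 12 of 14 members (median -4.11); Cpa3, a mast cell protease, went from 24.6, 18.4 and 16.4 to 1.51 and 1.50 CPM. Mrgprx2 and Hpgds were the 2 that rose. Erythroid genes fell in 14 of 15 (median -2.29, or -2.15 with Gata1, at 0 in the isolates, set to its bound). Hbb, a beta globin with near copies, stood at 3363, 3186 and 2899 CPM in lung and still at 693 and 1049 in the isolates. Of 12 tested platelet genes 8 fell and 4 rose (Itgb3, Rgs18, Pf4 and Gp1ba), beside 43.1% lower and 39.1% higher over all genes. Their median was -2.73, or -1.37 with the 1 gene at 0 in the isolates set to its bound. Gp1ba was not called without lung 2 (edgeR adjusted p = 0.0625) or isolate 2 (0.174).

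Genes of the vessel wall were lower almost throughout. Endothelial genes fell in 27 of 28 tested members, with a median of -5.59, and each of these by more than 2 on the log2 scale, against 25.0% of all genes. Kdr, the VEGF receptor that Sugen inhibits, went from 524, 505 and 494 to 14.9 and 10.6 CPM (-5.32, SE 0.15, edgeR adjusted p = 4.77e-10). Cdh5, the cadherin of endothelial junctions, fell by 5.65. Vwf, von Willebrand factor, kept more, with 981, 726 and 925 CPM in lung and 97.6 and 91.9 in the isolates. All lungs were above both isolates for Kdr and Vwf. Icam2, which leukocytes also carry, was the single member called higher (0.22), a sign that turned to -0.13 with total counts as the scale. It was not called without any 1 library other than lung 2, with adjusted p from 0.0760 to 0.0981 in edgeR. Aplnr, the apelin receptor of capillaries, fell by 7.39. Smooth muscle genes fell in 20 of 20 members (median -5.38) and pericyte genes in 15 of 15 (median -5.78). Acta2, smooth muscle actin, went from 513, 515 and 554 to 13.6 and 11.1 CPM, and Pdgfrb, the PDGF receptor of pericytes and fibroblasts, from 240, 246 and 255 to 4.82 and 3.96. Genes of the BMP and TGF-beta pathway, whose receptor BMPR2 is mutated in hereditary forms of the disease, were lower in 23 of 31 tested members and higher in 5 (Id2, Tgfb1, Smad4, Smad5 and Smad7, of which Smad7 turned to -0.04 with total counts as the scale). Acvrl1 (ALK1) went from 790, 803 and 816 to 17.1 and 17.0 CPM and Bmpr2 fell by 2.60, while the inhibitor of differentiation Id2 rose by 3.13 and Tgfb1 by 1.59.

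Epithelial and stromal genes fell to different depths. Alveolar type 1 genes fell in 15 of 15 (median -6.51). Ager, a receptor abundant on these flat cells, went from 2663, 2367 and 2418 to 13.6 and 11.4 CPM (-7.63, SE 0.16, edgeR adjusted p = 1.84e-10), with no overlap. Alveolar type 2 genes fell in 15 of 18 with a smaller median of -2.77. Sftpc, surfactant protein C, remained at 1841 and 1213 CPM in the isolates, against 10352, 10179 and 11608 in lung. Airway genes fell in 17 of 18 (median -3.03), and Scgb1a1, the club cell secretory protein, remained at 618 and 587 against 4980, 4522 and 4634. The lung mean was 7.02-fold that of the isolates for Sftpc and 7.82-fold for Scgb1a1, in contrast to 198-fold for Ager. Cilia genes fell in 19 of 19 (median -4.29), fibroblast and matrix genes in 28 of 28 (median -5.45). Col1a1, the main fibrillar collagen chain, went from 1854, 1522 and 2287 to 35.6 and 33.4 CPM and Col12a1, a collagen that associates with fibrils, from 424, 393 and 377 to 1.61 and 0.704, the largest fall (-8.45) among annotated genes with more than 3 counts in every library and at least 10 CPM in the higher group.

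**Figure D3:**
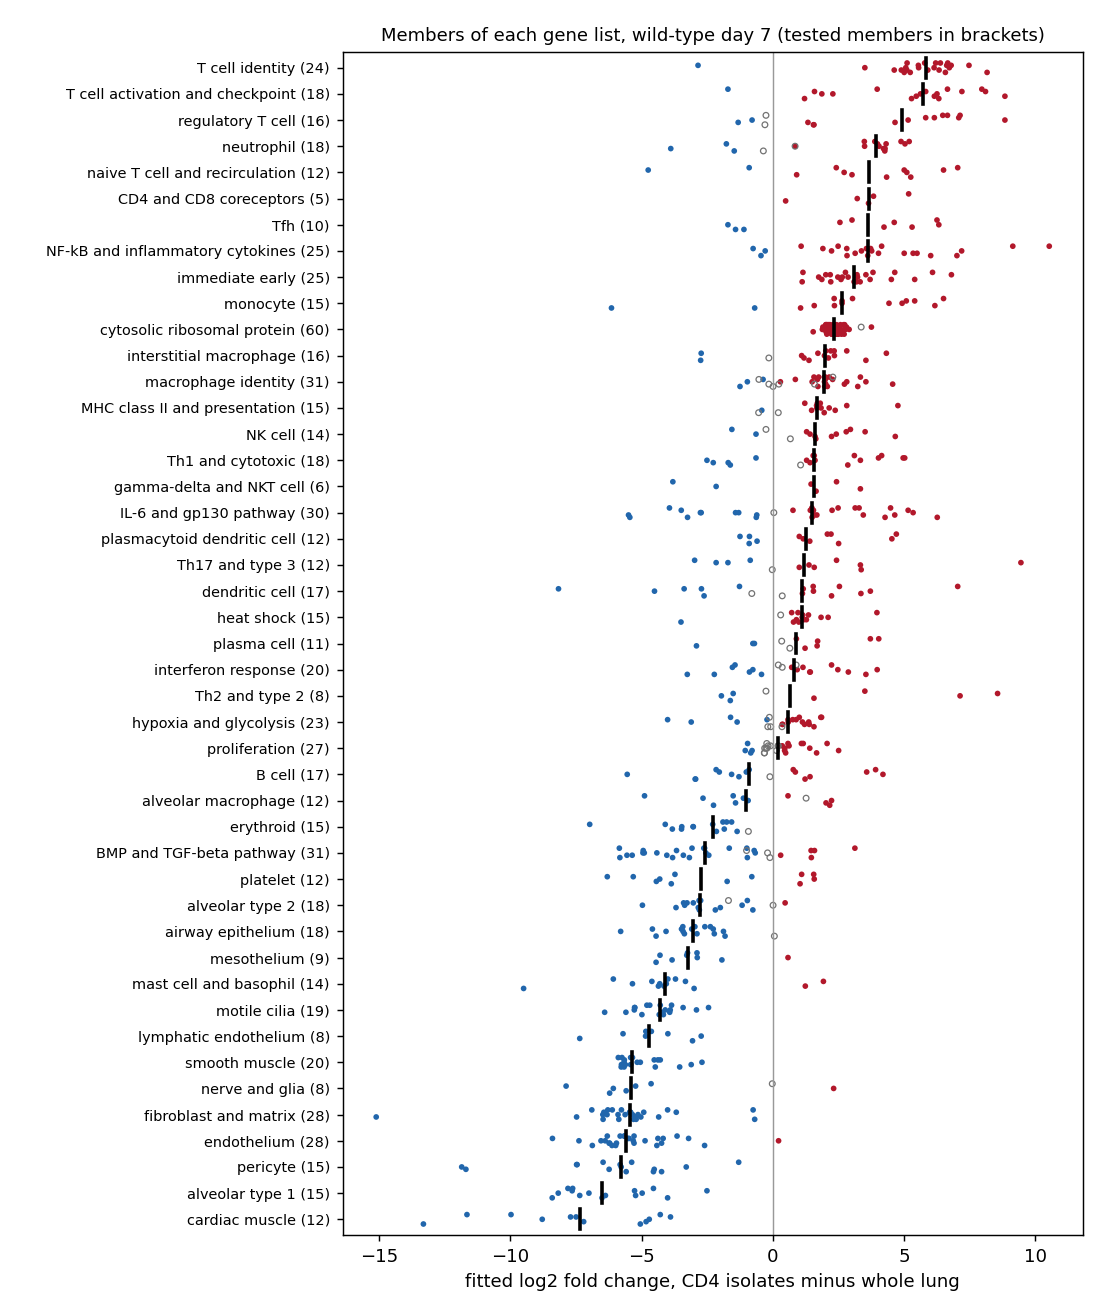
Fitted log2 fold change, isolates minus whole lung, of each tested member of the 45 gene lists with at least 5 tested members, ordered by median (black bar), with filled points for called genes (red higher, blue lower) and open points for the rest. T cell identity leads with a median of 5.85, and alveolar type 1 and cardiac muscle close the order at -6.51 and -7.36; points of genes at 0 in a whole group are fitted values, not bounds.

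Some lung genes were not detected in the isolates at all. 180 genes with at least 1 CPM in lung, 11 of them with at least 10, had 0 counts in both isolates. Mfap4, a microfibril protein of the matrix, had 5756, 5314 and 4732 counts in the lungs. It was at least 908-fold lower in the isolates, against a floor of 3 counts per library. The atrial myosin light chains Myl7 and Myl4 were at least 260-fold and 82.2-fold lower, and the pericyte genes Higd1b and Ndufa4l2 at least 94.5-fold and 84.7-fold. Heart muscle genes occur in the sleeve of the pulmonary veins of rodents, and 12 of 12 tested cardiac genes fell (median -7.36, or -5.70 with the 3 at 0 set to their bounds). In the other direction 21 genes with at least 1 CPM in the isolates had 0 counts in the 3 lungs, Il22 among them.

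Immediate early genes and inflammatory cytokines were also higher. All 25 tested immediate early genes were called higher, with a median of 3.10, against 39.1% of all genes. Fos was at 890 and 1248 CPM in the isolates and 18.7, 8.71 and 20.4 in the lungs (6.09, SE 0.46, edgeR adjusted p = 3.30e-04). Fosb was at 475 and 550 against 5.90, 3.12 and 5.01, and Junb at 1304 and 1382 against 48.8, 49.7 and 61.9. The isolates were above all lungs for each of these. Inflammatory cytokines and NF-kB targets rose in 22 of 25 members (median 3.62). Il1b was at 1720 and 1287 CPM against 9.81, 11.2 and 9.56, and the chemokine Cxcl2 at 438 and 382 against 0.722, 0.694 and 0.739, the largest rise (9.15) under the same conditions on counts and level. Tnf had 482 and 834 counts in the isolates and 1, 1 and 0 in the lungs, a ratio of 1855 with a 95% counting interval from 512 to 15330. Cxcl3, Icam1 and Csf1 were the 3 that fell, Csf1 not without lung 2 or isolate 2 (edgeR adjusted p = 0.0619 and 0.324). Heat shock genes rose in 13 of 15 (median 1.12); Hspa8 went from 93.8, 92.2 and 99.8 to 230 and 231 CPM, and Hspb1, a small heat shock protein of muscle and epithelium, fell from 130, 139 and 161 to 11.1 and 14.1. Genes of these lists are made by T cells and macrophages as well as by handled cells, and how far the isolation itself contributed was not tested.

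**Figure D4:**
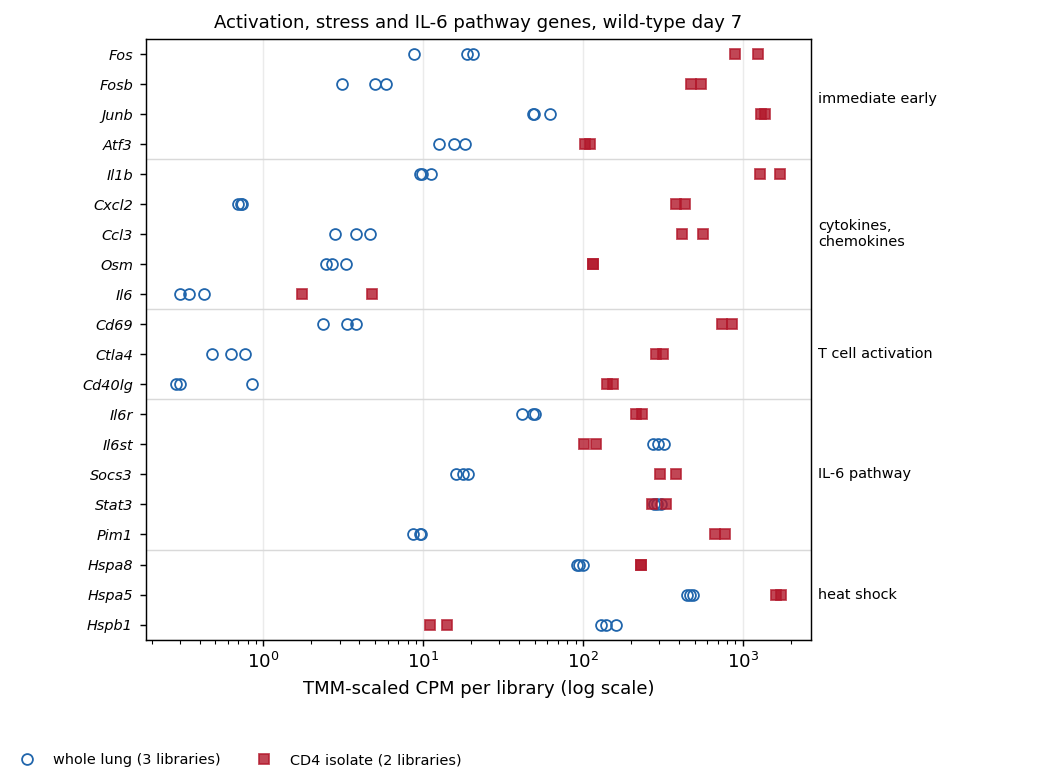
Level of 20 activation, stress and IL-6 pathway genes in each wild-type day 7 library, as TMM-scaled CPM on a log axis, with filled squares for the 2 CD4 isolates and open circles for the 3 whole lungs. Immediate early genes and cytokines are separated by large gaps (Fos at 890 and 1248 against 18.7, 8.71 and 20.4 CPM), Stat3 overlaps between the groups, and Il6st and Hspb1 lie lower in the isolates.

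Translation and mitochondrial genes took a larger share of the isolates' RNA. Of 60 tested ribosomal protein genes 59 were called higher (median 2.35) and Rpl30 was not called (3.37, edgeR adjusted p = 0.145). Without lung 3 Rpl30 was called too (edgeR adjusted p = 1.71e-04). Many of these genes have processed copies. Summed, they reached 95434 and 90210 CPM against 16697, 18481 and 18566. The elongation factor Eef1a1 took 1.36% and 1.18% of counts in the isolates and 0.310%, 0.341% and 0.342% in the lungs. The 13 mitochondrially encoded genes together took 7.86% and 7.78% against 3.95%, 4.09% and 3.45%, with no overlap. They supplied 6 of the 10 genes with the largest share in the isolates, led by Mt-co1, a subunit of cytochrome oxidase. Lyz2 was the only one of those 10 with a smaller share in the isolates, at 0.676% and 0.629% against 1.56%, 1.55% and 1.76%.

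Because the study is about IL-6 and its signal transducer gp130, that pathway was followed gene by gene. IL-6 binds its receptor Il6r, the pair engages gp130 (Il6st), and JAK kinases then activate Stat3, whose targets include the feedback inhibitor Socs3. Il6 itself was low throughout, at 4.82 and 1.76 CPM in the isolates and 0.301, 0.424 and 0.341 in the lungs (3.14, SE 0.48, edgeR adjusted p = 1.42e-04). Il6r was at 234 and 215 CPM in the isolates and 41.5, 50.2 and 48.4 in the lungs (2.26), with no overlap. Il6st went the other way, at 120 and 101 against 320, 273 and 296 CPM (-1.42, SE 0.11, edgeR adjusted p = 7.62e-07), also with no overlap. Stat3 overlapped, at 330 and 271 against 280, 307 and 289 CPM (0.04, edgeR adjusted p = 0.728). With total counts as the scale it was called lower (-0.31). Socs3 was at 382 and 302 CPM against 16.0, 19.0 and 17.8, and Pim1, a kinase induced by cytokines, at 770 and 668 against 8.61, 9.72 and 9.50. Of the sister cytokines and receptors, oncostatin M (Osm) rose from 2.47, 2.70 and 3.30 to 116 and 115 CPM, while its receptor Osmr and the LIF receptor Lifr fell by 5.50 and 3.49. In all, 18 of 30 tested pathway genes rose and 11 fell, beside 39.1% higher and 43.1% lower over all genes.

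The balance of T cell to macrophage RNA moved by a similar amount in each isolate. The log2 ratio of the summed T cell list to the summed macrophage list (CPM plus 1) was -1.43 and -1.48 in the isolates and -7.36, -7.01 and -7.11 in the lungs. The mean of the isolates was -1.45 ± 0.04 (SD, n = 2) and that of the lungs -7.16 ± 0.18 (SD, n = 3). The difference of 5.71 had p = 0.200 in a two-sided exact permutation test, the smallest that 2 against 3 libraries allow. The macrophage sum rests largely on Lyz2: with it the isolates were at 17349 and 17742 CPM against 17401, 18120 and 20343, and without it at 9431 and 10596 against 3277, 4053 and 4220. Without Lyz2 the difference was 4.24.

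The 2 isolates resembled each other closely for most genes. Among 8687 tested genes with a mean of at least 10 CPM in the isolates, 40 (0.460%) differed more than 2-fold between them. Between the highest and lowest lung 53 of 9905 genes (0.535%) did. The lung share is a range over 3 libraries, which tends to be wider than a gap between 2, so the shares are not like for like. Some of those 40 are known from myeloid cells, and these did not all go the same way. Spp1 (osteopontin) was at 22.9 and 179 CPM, Apoe (apolipoprotein E) at 253 and 799 and Mmp8 (a neutrophil collagenase) at 28.6 and 92.0, each higher in isolate 2. Fcnb (ficolin B, 252 and 113 CPM), Thbs1 (thrombospondin 1, 248 and 100 CPM) and Irf7 (an interferon factor, 209 and 91.5 CPM) were higher in isolate 1. No test is given between 2 single libraries.

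Il6, the gene named in the IL6KO label, was still counted in every library of that label, with 8 and 17 counts (0.720 and 1.58 CPM) in the isolates and 8, 5 and 2 (0.413, 0.282 and 0.0955 CPM) in the lungs. The WT libraries had 48 and 20 counts (4.82 and 1.76 CPM) in the isolates and 5, 11 and 6 (0.301, 0.424 and 0.341 CPM) in the lungs. Both IL6KO isolates were below both WT isolates, while the lungs of the genotypes overlapped. Which part of the gene the knockout removes is not given in the labels, so these counts do not check them, and IL6KO below means the libraries labelled so.

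In IL6KO rats the same contrast called 5234 genes higher (36.1%) and 6188 lower (42.6%) of 14515, 78.7% in all, with 7.38% higher and 25.1% lower by at least 2 on the log2 scale. Of the 5610 genes called higher in WT and tested in IL6KO, 4842 (86.3%) were called higher there too, which is 93.6% of the 5171 higher in IL6KO and tested in WT. The T cell list had a median of 5.34 and the macrophage list one of 2.42, beside 5.85 and 1.97 in WT. Cd4 differed by 4.97 in IL6KO and 5.18 in WT, and the test of the difference between the genotypes, in 1 fit over all 10 libraries, gave -0.18 (edgeR adjusted p = 0.591). This interaction called 277 of 14772 genes higher in IL6KO (1.88%) and 672 lower (4.55%), 6.42% in all. Without WT isolate 1 these fell to 87 and 254.

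Cd8a differed most between the genotypes among the T cell genes named. In IL6KO it was at 14.3 and 11.7 CPM in the isolates and 15.6, 15.3 and 11.1 in the lungs, so both isolates lay within the range of the lungs, unlike in WT. Its enrichment was -0.10 in IL6KO and 3.84 in WT, a difference of -3.91 (SE 0.27, edgeR adjusted p = 6.95e-05). Prf1 and Tbx21 differed by -1.72 and -1.41, and Cd69 and Il2ra by -1.33 and -0.99. These 5 were called without any 1 of the 10 libraries. For Prf1 the lungs differed more than the isolates: the IL6KO lungs were at 60.0, 53.8 and 47.5 CPM and the isolates at 49.5 and 47.6, against 15.3, 23.1 and 21.8 and 67.4 and 55.9 in WT. Tbx21 was at 11.0, 10.8 and 10.4 CPM in the IL6KO lungs and 11.2 and 11.8 in the isolates, against 4.63, 4.67 and 5.80 and 13.3 and 15.8 in WT. The IL6KO lungs were above the WT lungs for both genes. Unlike Cd8a, Cd8b was still higher in the IL6KO isolates, at 4.32 and 3.24 CPM against 1.45, 1.41 and 1.58 in the lungs. Its log2 difference there was 1.35 (SE 0.27, edgeR adjusted p = 0.00147), beside 3.22 in WT. Cd8b differed by -1.84 but was not called without WT isolate 1 or IL6KO isolate 2, with edgeR adjusted p up to 0.0538.

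Csf1r was enriched more in IL6KO, by 2.60 against 2.00, a difference of 0.64 (SE 0.11, edgeR adjusted p = 0.00668). Some epithelial, endothelial and smooth muscle genes were removed further in IL6KO. The log2 difference of Sftpc was -4.88 there and -2.81 in WT, that of Cdh5 -6.96 and -5.65, and that of Acta2 -6.98 and -5.42. Of 19 airway genes 10 were called lower in the interaction (median -1.86), and of 18 alveolar type 2 genes 9 (median -1.13), against 4.55% of all genes. Endothelial genes were called lower in 6 of 28 and smooth muscle genes in 8 of 20, with 1 higher. Kdr (0.21, edgeR adjusted p = 0.772) and Vwf (-0.26, edgeR adjusted p = 0.497) were not called. Of 60 ribosomal protein genes 41 were called lower (median -0.53), and 19 with total counts as the scale. That scale moved the median of the interaction over all genes by 0.11 and its calls to 404 higher and 440 lower. The part of epithelial and stromal RNA in the other differences between the genotypes was not tested.

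**Figure D5:**
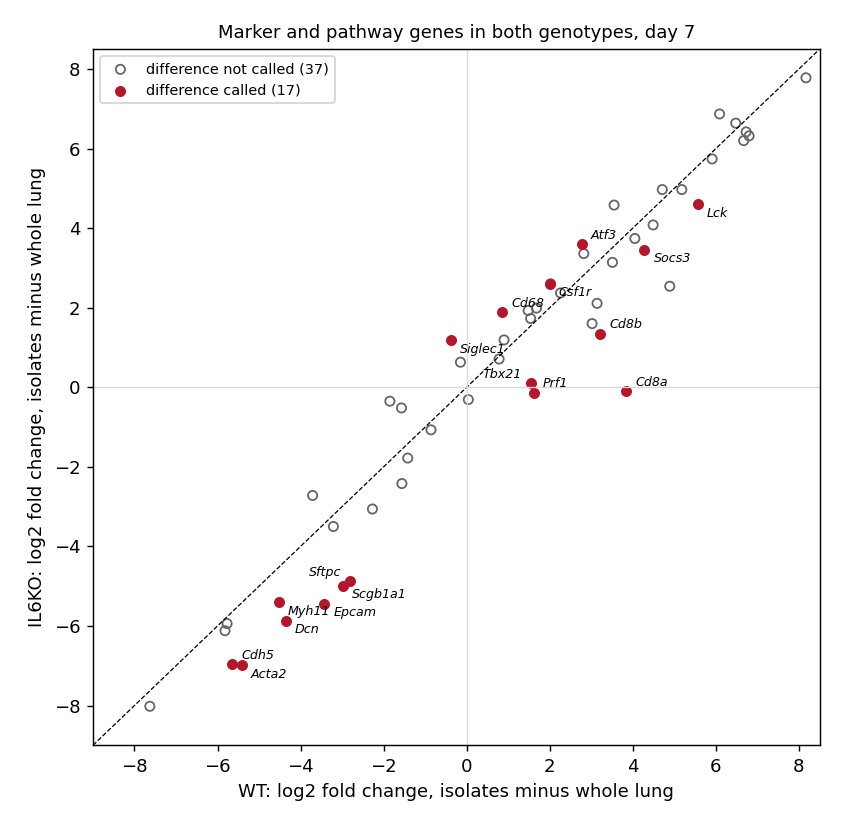
Fitted log2 fold change, isolates minus whole lung, in WT (horizontal) and IL6KO (vertical) at day 7 for 54 marker and pathway genes tested in both, with equality dashed. The 17 filled genes had a called difference between the genotypes: Cd8a lies furthest below the line (3.84 in WT, -0.10 in IL6KO), and Csf1r lies above it.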

How the data were processed

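RNA from CD4-positive lung cells and from whole lung was sequenced on Illumina instruments after Trizol and column extraction with DNase, per the labels' protocols. The deposited files are raw counts per gene symbol, 1 table for isolates and 1 for lungs. The submitters' processing notes list the mouse build GRCm38 for these rat samples; the sources used here name no aligner, counter, annotation or strand setting, so overlapping or antisense genes may share reads, and genes missing from the tables were not analysed here. The 22071 symbols in both tables were joined, leaving 10 in each.

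In R 4.3.3, edgeR 4.0.16 filtered genes with filterByExpr, scaled libraries by TMM and fitted the quasi-likelihood model to the 5 WT libraries, to the 5 IL6KO libraries, and to all 10 for the interaction, with p-values adjusted by Benjamini-Hochberg. The fit was checked on simulated counts. Alternatives were DESeq2 1.42.0, limma 3.58.1 (voom), other scalings, filters, a minimum log2 difference of 1, a replicate block, a 4-group fit, and leaving out each library; the ratio without Lyz2 was added after seeing the data. Depths ran from 11477533 to 23590070 counts. Floors of 3 counts per library and 95% exact intervals cover counting error only. The members and gene lists were chosen with earlier results of these data known. Genes named by rule were marker and pathway genes, the 12 largest changes a direction, up to 4 members per list with the smallest p, the 6 most abundant lung genes at 0 in the isolates, 5 interaction genes a direction and the 10 largest shares; other genes in the text were chosen after their values were seen. Promoters came from the RefSeq table on GRCr8, matched by symbol. Some genes are not reported here.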

Additional observations from a re-analysis of the deposited data

Results flagged for a closer look

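The following were singled out because the enrichment in the isolates differed between IL6KO and WT rats by the interaction test, which called 949 of 14772 genes (6.42%). All values are differences of the log2 enrichment, IL6KO minus WT. Among T cell genes, Cd8a differed by -3.91, Cd8b by -1.84, Prf1 by -1.72, Tbx21 by -1.41, Cd69 by -1.33, Il2ra by -0.99 and Lck by -0.92. Among macrophage and monocyte genes, Csf1r differed by 0.64, Cd68 by 1.06, Siglec1 by 1.59, Pparg by 1.22, Stab1 by 0.90, Cd40 by 0.70 and Plac8 by -0.87. Genes of neutrophils and epithelium gave -2.69 for Cd177 and -1.61 for Lcn2. The structural genes among those flagged were lower: -2.04 for Sftpc, -1.99 for Scgb1a1, -1.28 for Cdh5, -1.69 for Ace and -1.53 for Acta2. Other called genes went the opposite way, among them Neb by 2.62 and Col17a1 by 2.30. The signaling gene Smad5 gave -0.63. The cytokine and stress targets Socs3 and Atf3 differed by -0.79 and 0.85. Tbx21, Cd8a, Prf1, Csf1r, Cdh5, Acta2, Sftpc, Scgb1a1, Cd69, Il2ra, Pparg, Ace and Cd177 were called without any 1 of the 10 libraries. Cd8b, Lck, Cd68, Siglec1, Socs3, Atf3, Stab1, Plac8, Cd40, Lcn2 and Smad5 were not called without at least 2 of them, with edgeR adjusted p up to 0.171. With total counts as the scale Lck, Socs3, Plac8, Lcn2 and Smad5 were not called either (edgeR adjusted p of 0.0604, 0.0627, 0.0632, 0.0610 and 0.0706).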

How the results depend on the processing

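Requiring a log2 difference of at least 1 left 3043 of the 5654 genes called higher in WT, 2710 of 5234 in IL6KO, and 97 higher and 413 lower in the interaction. The interaction was the least stable count: limma-voom called 177 higher and 374 lower, scaling by total counts 440 lower, and leaving out 1 library gave 87 to 346 higher and 254 to 811 lower, the lowest without WT isolate 1. The WT counts ran from 5336 to 5496 higher and from 5910 to 6161 lower when 1 library was left out. Of 134 named genes tested in WT, 109 kept their direction and their side of the threshold under every alternative run. Stat3 turned to -0.31, Icam2 to -0.13 and Smad7 to -0.04 with total counts as the scale. Adamts13, at 0 counts in 1 isolate, was fitted at 1.39 without isolate 1 and at -11.01 without isolate 2. The T cell to macrophage difference kept its sign throughout and was 5.61 to 5.78 when 1 library was left out, but with 2 against 3 libraries its p says nothing about stability. Fitting the replicate number as a block gave 5504 higher and 6041 lower in WT, and 350 and 825 in the interaction. The main fit has no such block because the labels do not tie the numbers to animals. Deviations of same-numbered isolates and lungs from their group means had correlations of 0.00 and -0.01 in WT and 0.04 and -0.05 in IL6KO. With 2 isolates per genotype these deviations mirror each other, so the values cannot decide whether the numbers pair samples. The 2 isolates per genotype limit every comparison, and genes with few counts allow bounds only.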

Other observations

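Further lists were measured in WT, to be read beside the 39.1% of all genes called higher and 43.1% lower. With total counts as the scale, 4320 genes were called higher and 7486 lower. Of 27 tested proliferation genes 12 were called higher and 4 lower (median 0.20), which turned to 7 higher and 11 lower (median -0.14) with total counts as the scale. Hypoxia and glycolysis genes were higher in 14 and lower in 5 of 23, or 12 and 8 on that scale. Interferon response genes split 10 higher to 7 lower of 20. Lymphatic endothelial genes fell in 8 of 8 (median -4.73) and mesothelial genes in 8 of 9 (median -3.25).

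A pair of genes stood far apart between the 2 WT isolates. Adamts13, a protease that trims von Willebrand factor, had 0 counts in isolate 1 and 437 in isolate 2, with 13.7, 15.8 and 14.7 CPM in the lungs and 1114 and 557 counts in the IL6KO isolates. Fam111a was at 8.63 and 310 CPM in the isolates and 250, 12.3 and 12.7 in the lungs, so 1 isolate and 1 lung stood apart from the other libraries.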
